A study of Mus musculus with 10 samples.

Results

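The Hox and Evx genes examined here were 40 members of the homeobox family: 10 genes of the Hoxa cluster on chromosome 6, 10 of the Hoxb cluster on chromosome 11, 9 of the Hoxc cluster on chromosome 15, 9 of the Hoxd cluster on chromosome 2, and Evx1 and Evx2, which lie beside Hoxa13 and Hoxd13. They were chosen by gene name, not by their values, but with earlier results of these data known. Cytosines inside each gene and within 2000 bp of either end (mm10) were pooled into 1 region per gene, and 1000 bp tiles touching such a window were taken as member tiles. All 40 members were measured, out of 17653 protein-coding gene regions with at least 3 covered CpGs. They held 194 of 166012 tiles and 3949 of 1988759 cytosines, the latter on 2780 CpGs. The windows of 27 members overlap that of a neighbour, and that of Hoxa3 contains all of Hoxa4, Hoxa5 and Hoxa6, so the 40 regions are not independent.

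The DNA came from testis of F2 mice, sorted by the labels into a control group and an arsenic group of 5 libraries each. Methylation was read by bisulfite sequencing of a CpG-rich, reduced fraction of the genome, in which unmethylated cytosines appear as thymines, so that each cytosine has a number of methylated and of unmethylated reads. The labels state the generation, tissue and group. They give no strain, age, dose or treated ancestor, and they do not say that libraries came from separate animals, so that the spread behind each p-value may be technical. Reads over member cytosines totalled 129414 in control library 4, the lowest, and 192919 in arsenic library 3, the highest, with a median coverage per cytosine of 25 to 39 reads.

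Hox proteins are transcription factors that give cells their position along the body axis, and their genes stand in each cluster in the order in which they are used from head to tail. In cells where they are silent the clusters are usually held by Polycomb proteins over long CpG-rich stretches without DNA methylation, while Trithorax proteins keep active genes open. Evx genes are the homeobox genes at the posterior end of these clusters, with roles in the spinal cord and, for Evx2, in the limb. In the testis most DNA comes from germ cells, in which clusters of this kind are known to stay largely free of DNA methylation.

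The start sites inside these clusters ranged from methylated to unmethylated. The 250 bases upstream of 5 member starts, chosen after their levels were seen to show both ends of that range, follow, 5′ to 3′ on the gene's strand, from RefSeq on GRCm38.p6, the assembly behind mm10, with each CpG measured in all 10 libraries in capitals. Hoxd4 (chr2:74721728-74721977, plus strand) was the methylated one, and Hoxd9 (chr2:74697513-74697762, plus), Hoxd1 (chr2:74762730-74762979, plus), Hoxa5 (chr6:52204588-52204837, minus) and Hoxa13 (chr6:52260881-52261130, minus) were unmethylated or nearly so.
Hoxd4: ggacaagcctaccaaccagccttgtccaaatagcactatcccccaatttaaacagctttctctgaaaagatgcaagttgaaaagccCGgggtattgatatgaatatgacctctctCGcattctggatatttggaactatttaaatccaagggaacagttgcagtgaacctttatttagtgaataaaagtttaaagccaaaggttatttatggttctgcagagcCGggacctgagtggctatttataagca
Hoxd9: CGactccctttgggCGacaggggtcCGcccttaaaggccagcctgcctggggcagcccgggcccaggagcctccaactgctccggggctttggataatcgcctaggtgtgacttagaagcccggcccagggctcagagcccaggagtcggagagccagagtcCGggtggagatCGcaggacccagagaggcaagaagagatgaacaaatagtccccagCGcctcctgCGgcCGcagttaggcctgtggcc
Hoxd1: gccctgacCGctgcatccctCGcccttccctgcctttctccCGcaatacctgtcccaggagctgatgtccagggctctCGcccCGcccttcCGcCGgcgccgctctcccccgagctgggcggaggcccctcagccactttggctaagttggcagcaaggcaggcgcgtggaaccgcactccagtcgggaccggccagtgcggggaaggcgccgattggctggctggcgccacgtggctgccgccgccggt
Hoxa5: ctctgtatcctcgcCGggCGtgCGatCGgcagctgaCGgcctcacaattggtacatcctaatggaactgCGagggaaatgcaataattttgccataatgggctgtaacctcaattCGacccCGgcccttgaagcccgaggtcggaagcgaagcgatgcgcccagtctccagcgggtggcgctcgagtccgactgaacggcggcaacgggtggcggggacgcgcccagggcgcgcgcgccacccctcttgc
Hoxa13: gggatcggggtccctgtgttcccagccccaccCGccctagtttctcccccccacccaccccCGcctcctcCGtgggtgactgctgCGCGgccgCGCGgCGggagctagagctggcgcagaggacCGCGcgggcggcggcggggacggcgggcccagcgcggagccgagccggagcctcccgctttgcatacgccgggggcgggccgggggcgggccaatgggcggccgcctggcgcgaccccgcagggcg
The Hoxd4 stretch held 3 CpGs, against 13 in Hoxd9, 24 in Hoxd1, 28 in Hoxa5 and 35 in Hoxa13.

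Levels were taken over the promoter window of 250 bp upstream and 50 bp downstream of a start. The Hoxd4 promoter, with 4 measured CpGs, read 86.5%, 71.9%, 76.2%, 85.0% and 74.7% methylated in control libraries 1 to 5 and 82.3%, 83.7%, 89.3%, 80.1% and 83.5% in arsenic libraries 1 to 5. It was therefore high in every library, and the groups overlapped. Hoxa13, which shapes digits and the genital tract, stood at the other end of the scale where 10 measured CpGs gave a level of 0.604% ± 0.897 (SD, n = 5) for control and 0.430% ± 0.962 for arsenic libraries. In 7 of its 10 libraries no methylated read was seen, among 135 to 320 reads, which allows levels of up to 0.938% to 2.22% by library. The promoters of Hoxd1, a gene of sensory neurons, and of Hoxd9, a limb gene, were at 1.69% and 1.39% over the 10 libraries. Hoxa5, needed for the airways, was at 7.13% ± 3.99 in control and 3.91% ± 4.09 in arsenic. The promoter table covered 24 members with 26 starts, of which 10 genes had measured CpGs. Of the 10 promoters with at least 3 measured CpGs, 9 were under 10% methylated, where the share was 88.0% of 8611 promoters over the genome. Member promoters held a median of 14.5 CpGs per window, against 7 in all promoters, with a median GC content of 56.5% against 52.7%. The methylated promoter, that of Hoxd4, held 4 CpGs at a GC content of 39.7%. Hoxa9 and 1 of the Hoxd11 starts also held 4 CpGs, none of them measured. Promoters with somewhat more CpGs were low, at 6.27% in Hoxc4 (9 CpGs), 5.12% in Hoxb1 (10 CpGs) and 3.04% in Hoxd12 (13 CpGs), and no test related sequence to level.

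Most of the Hox and Evx sequence measured was nearly unmethylated, broken by short methylated stretches. Pooled over all 40 members, control libraries had a methylation level of 10.6% ± 0.496 (SD, n = 5) and arsenic libraries one of 9.89% ± 0.516. Of the 194 member tiles, 130 (67.0%) were under 10% methylated, 44 lay between 10% and 50%, and 20 (10.3%) were at 50% or more. Over all tiles the shares were the other way round, 14.6% under 10% and 73.7% at 50% or more. The contrast was seen at both CpG densities. Among tiles with 3 to 9 measured CpGs, 47.1% of member tiles and 5.92% of all tiles were under 10%. Among tiles with 10 or more CpGs these shares were 83.2% and 46.5%.

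**Figure D1:**
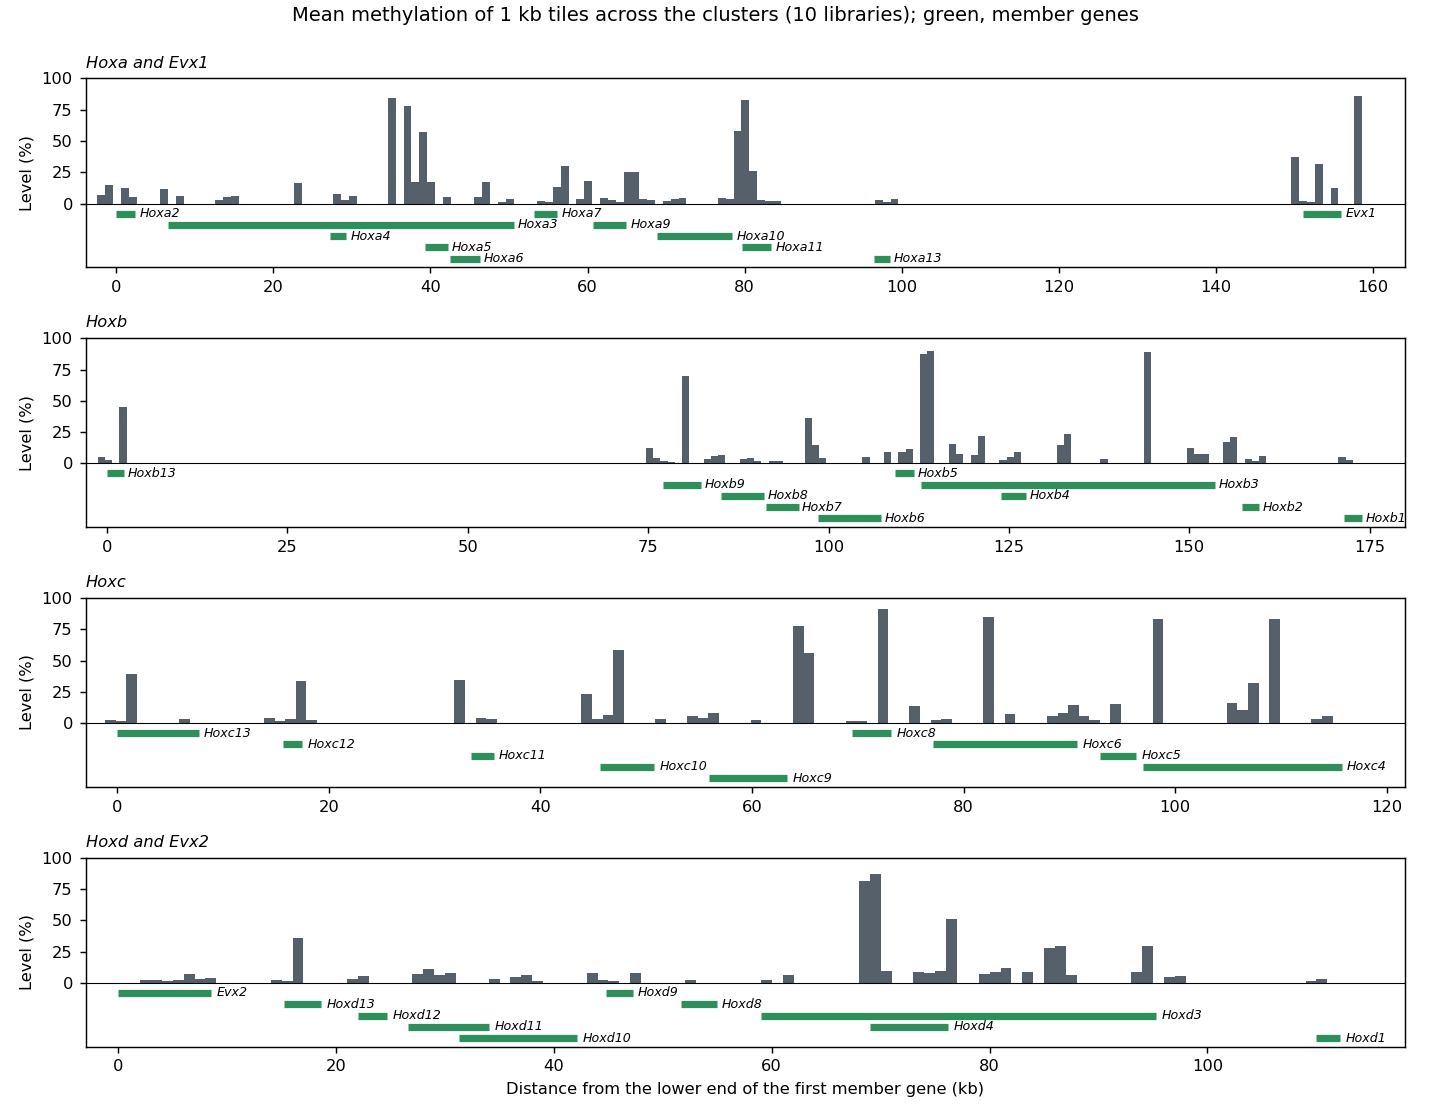
Bars give the methylation level (%, mean of 10 libraries) of each measured 1000 bp tile against its distance in kb from the lower end of the first gene, in 4 panels for Hoxa with Evx1, Hoxb, Hoxc, and Hoxd with Evx2; green lines are the member genes. Low bars fill most of each cluster, and isolated high bars stand at Hoxd4, near Hoxa5, between Hoxa10 and Hoxa11, in Hoxb3, at Hoxc8 and beside Evx1.

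The 20 methylated tiles were spread over the loci: 5 in Hoxa, 4 in Hoxb, 7 in Hoxc, 3 in Hoxd and 1 beside Evx1. All but the last held fewer than 10 measured CpGs, with a median of 4 over the 20. The highest lay inside Hoxc8, a thoracic patterning gene (chromosome 15, 102993001 to 102994000), with control libraries 1 to 5 at 91.6%, 91.1%, 93.1%, 89.9% and 93.2% and arsenic libraries at 90.1%, 91.8%, 93.4%, 88.6% and 91.1%. In Hoxb3, a hindbrain gene, the tiles at chromosome 11, 96308001 to 96309000 and 96338001 to 96339000, were at 89.6% and 88.7% over 10 libraries. The spread within groups was narrow at Hoxc8 (SD 1.40 in control and 1.78 in arsenic) and the groups overlapped at all 3. In Hoxd the start of Hoxd4, which lies inside the longer Hoxd3 gene, fell in a pair of methylated tiles at 81.6% and 87.3%. In Hoxa, tiles at 57.6% and 82.7% lay at the junction of Hoxa10 and Hoxa11, both genes of the uterus and limb, and others at 84.0%, 77.8% and 56.8% lay inside the long Hoxa3 gene, near Hoxa5.

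By level pooled over reads, each of the 4 clusters kept its place in nearly every library. Hoxc was the most methylated, at 16.2%, 17.6%, 15.7%, 18.7% and 18.3% in control libraries 1 to 5 and 16.5%, 15.4%, 16.5%, 14.4% and 18.0% in arsenic libraries 1 to 5. It lay above each of the other three clusters in 10 of 10 libraries, by 6.87 percentage points over Hoxd on average (range 4.93 to 8.45). Hoxa was the lowest in 10 of 10 libraries, at 6.99%, 7.50%, 7.74%, 7.06% and 6.92% in control and 6.78%, 7.10%, 6.75%, 6.78% and 7.58% in arsenic. Hoxb (9.28% ± 1.17 in control, 8.20% ± 0.804 in arsenic) lay between Hoxa and Hoxd (10.4% ± 0.699 and 9.30% ± 0.451). The order of Hoxb and Hoxd was less firm, since Hoxb was above Hoxd in 1 of 10 libraries, by 0.0440 points. Single tiles gave another order, with a median level of 7.25% in Hoxd, 6.94% in Hoxb, 5.74% in Hoxc and 5.46% in Hoxa. Among tiles with 10 or more CpGs, the Hoxc median of 3.61% was the lowest of the 4. Of the Hoxc tiles, 15.6% were at 50% or more, against 10% in Hoxa, 8.70% in Hoxb and 7.50% in Hoxd.

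The surroundings of the clusters were mixed. Stretches of 0 to 10, 10 to 25 and 25 to 50 kb beyond the outermost member windows gave a level in 16 of 24 cases, over 6 to 55 CpGs each, and the groups overlapped in all 16. Over the 10 libraries 8 stretches were at 50% or more, 6 lay between 10% and 50%, and 2 were under 10%. Between 25 and 50 kb out the level was 82.0% on the lower and 82.8% on the higher side of Hoxb, 87.8% on the higher side of the Hoxa and Evx1 locus and 92.5% on the lower side of Hoxc. On the lower side of the Hoxa locus it was 49.0%. Nearer to the clusters, the 10 kb below Hoxa and below Hoxb were at 19.96% and 5.52%, and those beyond the higher Evx1 window at 30.7%. Below Hoxb the level was 31.5% at 10 to 25 kb. At Hoxd the 10 kb beyond the lower end, next to Evx2, were at 80.4% over 6 CpGs, with 29.1% at 10 to 25 kb. On the higher side of Hoxc, beyond Hoxc4, the level was 5.87% at 10 to 25 kb and 13.8% at 25 to 50 kb.

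Among single members, 26 of 40 had a mean level under 10%, 8 lay between 10% and 20%, and 6 were above. The median over the 40 was 8.02%, against 44.3% over all gene regions. By position in the body plan, the median was 11.4% over the 11 anterior Hox genes (paralog groups 1 to 4), 9.75% over the 11 middle genes (groups 5 to 8) and 6.96% over the 16 posterior genes (groups 9 to 13). Genes of the same group could differ widely. Group 8 ran from 2.07% in Hoxd8 to 47.7% in Hoxc8, and group 4 from 5.99% in Hoxa4 to 36.0% in Hoxd4, whereas both genes of group 7, Hoxa7 and Hoxb7, were at 3.51% and 3.92%. In group 5, Hoxa5 (23.1%) and Hoxb5 (20.1%) were the highest members of their clusters, while Hoxc5 (14.1%) was the median member of Hoxc.

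In Hoxa, Hoxa5 was the most methylated member, at 21.5%, 20.6%, 29.0%, 24.7% and 22.9% in control libraries 1 to 5 and 21.0%, 24.8%, 22.1%, 21.8% and 22.2% in arsenic libraries 1 to 5. Hoxa7, a thoracic gene, was the least, at 3.46%, 3.31%, 3.43%, 3.87% and 3.42% in control and 3.94%, 3.78%, 2.67%, 3.05% and 4.18% in arsenic. The groups overlapped in both, and Hoxa7 was tighter in control than in arsenic libraries. In Hoxb, Hoxb5, expressed in neural crest and enteric neurons, had the highest level, at 23.2%, 23.2%, 19.5%, 29.0% and 18.0% in control and 14.2%, 24.6%, 19.6%, 14.2% and 15.9% in arsenic. Hoxb8, known from microglia and grooming, had the lowest, at 2.88%, 4.20%, 5.34%, 3.70% and 4.05% in control and 3.40%, 3.15%, 3.11%, 2.19% and 3.23% in arsenic. Arsenic libraries were on average lower in both genes, without separating from control.

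In Hoxc, Hoxc8 was the highest of all 40 members, at 46.3%, 46.2%, 45.5%, 51.5% and 57.3% in control libraries 1 to 5 and 44.3%, 44.3%, 51.0%, 40.9% and 49.3% in arsenic libraries 1 to 5. Its level was carried by the gene body, at 48.7% over 37 CpGs. Hoxc13, a gene of hair and nails, was the lowest of the cluster, at 7.16%, 7.70%, 7.28%, 6.41% and 7.18% in control and 8.997%, 5.999%, 8.64%, 6.03% and 8.59% in arsenic. The arsenic libraries of Hoxc13 lay on both sides of the narrower control range.

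In Hoxd, Hoxd4, which patterns the neck vertebrae, was the highest, at 38.5%, 34.2%, 40.01%, 34.3% and 33.2% in control libraries 1 to 5 and 35.9%, 36.8%, 35.8%, 34.0% and 36.9% in arsenic libraries 1 to 5. Its lower flank, which holds the methylated promoter shown above, was at 82.9%, its body at 24.1% and its higher flank at 51.0%. The body was uneven, with the tile from 74722001, next to the start, at 87.3%. Its measured tiles from 74723001 to 74729000 were at 9.82%, 8.85%, 8.25% and 9.69%. Hoxd1 was the lowest of all members, at 0.808%, 1.98%, 0.983%, 0.434% and 1.62% in control and 4.07%, 0.355%, 0.275%, 5.25% and 3.21% in arsenic. Of the arsenic libraries, 3 were above all control libraries of Hoxd1 and 2 below, with 461 to 1119 reads behind each value.

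**Figure D2:**
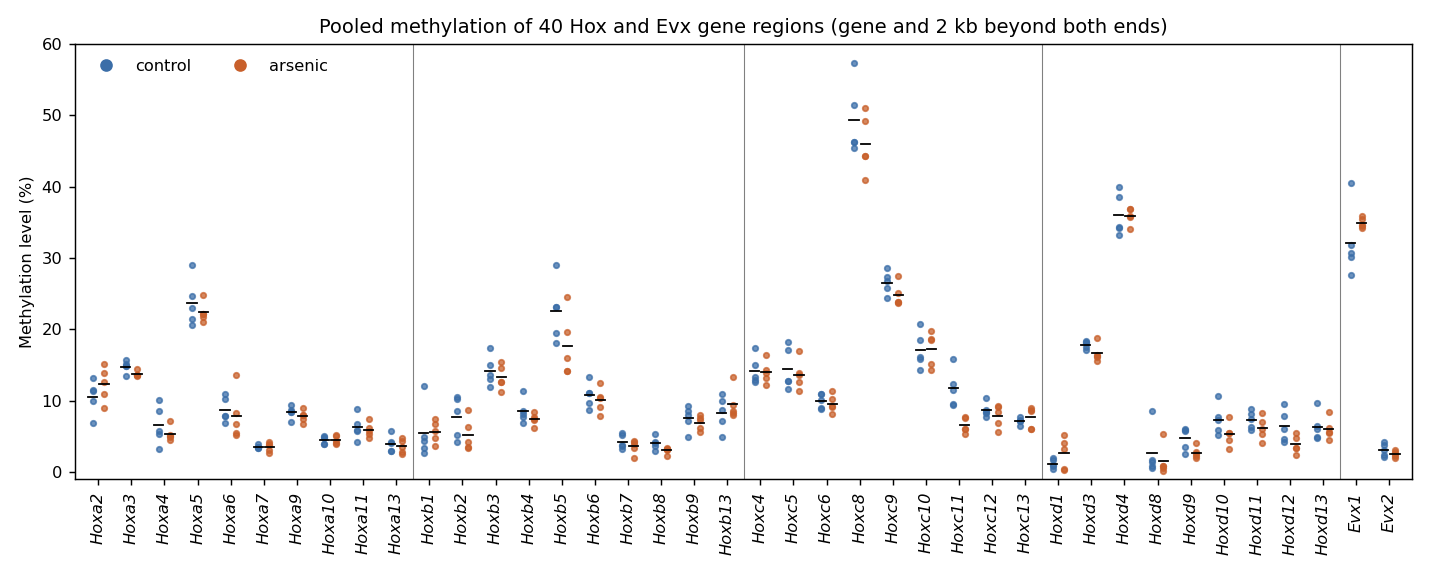
Each point is the pooled methylation level (%) of a member region in 1 library, blue for the 5 control and orange for the 5 arsenic libraries, with short lines at the group means; vertical lines separate Hoxa, Hoxb, Hoxc, Hoxd and the Evx genes. Hoxc8 stands highest at 40.9% to 57.3%, Hoxd4 and Evx1 follow, and the arsenic points of Hoxc11 lie below all of its control points.

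The comparison of arsenic with control asked whether these developmental genes differed in testis DNA of the F2 generation. The share of methylated reads was tested with a logistic model whose spread between libraries was quasi-binomial, fitted over all features of a kind, and p was adjusted by Benjamini-Hochberg. A call needed an adjusted p under 0.05 together with 10 or more percentage points between the groups. No member passed: 0 of 40 gene regions, 0 of 194 tiles, 0 of 53 measured flanks and 0 of 3949 cytosines were called, as were 0% of all 17653 gene regions and 0% of all 166012 tiles. All values in this comparison are therefore descriptions of features that did not pass, and they are ranked by unadjusted p.

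The members leaned to lower levels in arsenic. Of the 40 regions, 31 (77.5%) were lower, against 59.7% of all gene regions, and the median difference in mean level was -0.754 percentage points, against -0.433 over all gene regions. Lower regions numbered 7 of 10 in Hoxa, 8 of 10 in Hoxb, 7 of 9 in Hoxc and 8 of 9 in Hoxd. Since windows are shared between neighbours, these are not separate observations. Members had a median level of 8.02%, against 44.3% over all gene regions, and the backgrounds given here were not matched for level. At an unadjusted p under 0.05 stood 4 of 40 members, all lower in arsenic (Hoxc11, Hoxd9, Hoxb8 and Hoxd12), where the background is 5.71% of gene regions in either direction and 4.3% in the lower one. Groups did not overlap in 1 member, Hoxc11, against 0.77% of gene regions. The SD between control libraries was larger than that between arsenic libraries in 27 of 40 members (67.5%), against 54.3% of gene regions. The counts were 28 to 33 lower regions when single libraries were left out, and 25 of 40 without control libraries 4 and 5, which were among the least deeply read. The share over all gene regions was not computed in these settings.

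By cluster, the mean level in arsenic minus control was -0.241 points in Hoxa, -1.08 in Hoxb, -1.17 in Hoxc and -1.15 in Hoxd. The groups overlapped in all 4, and the SDs within groups were of similar size to these differences (1.17 and 0.804 in Hoxb, 1.30 and 1.34 in Hoxc), except that the Hoxd SDs were smaller. In Hoxd control libraries 1 to 5 read 11.3%, 9.39%, 10.2%, 10.7% and 10.6% and arsenic libraries 1 to 5 read 8.51%, 9.63%, 9.40%, 9.40% and 9.54%. Only control library 2 fell among the arsenic values of Hoxd. Without control libraries 4 and 5 the differences were -0.540 in Hoxb and -0.367 in Hoxc, with Hoxd at -1.01. The gene ends of 5 Sertoli cell markers, all measured, had a mean level of 4.08% ± 0.825 in control and 2.28% ± 0.749 in arsenic (range 2.80% to 4.90% and 1.33% to 3.07%). The means were lower in arsenic for 4 of 5 markers and not for Wt1 (2.39% and 2.49%), and the groups overlapped in each. Their part in the Hox values was not tested.

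**Figure D3:**
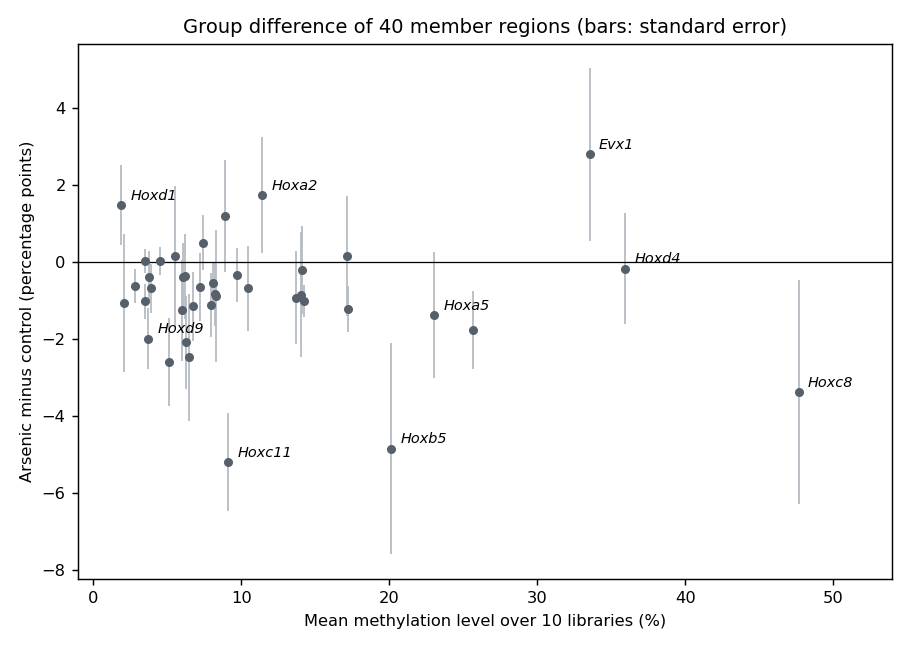
Points give the arsenic minus control difference in mean level (percentage points) of each of the 40 member regions against its mean level (%) over 10 libraries, with bars of 1 standard error of the difference. Of 40 points, 31 lie below 0 and Hoxc11 (-5.19) and Hoxb5 (-4.85) lie lowest and Evx1 (2.79) lies highest.

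Hoxc11, a gene of the lumbar and sacral region, had the smallest p of the members. It read 9.34%, 12.3%, 11.5%, 15.8% and 9.57% in control libraries 1 to 5 and 6.07%, 7.60%, 7.68%, 5.29% and 5.96% in arsenic libraries 1 to 5. All arsenic libraries were below all control libraries. The pooled difference was -4.77 points, with an unadjusted p of 0.00393 and an adjusted p of 0.847 in the quasi-binomial model. The gene alone read 5.54% ± 2.31 in control and 1.39% ± 0.400 in arsenic, while its lower flank read 34.6% ± 5.59 and 34.3% ± 6.77. The region pools the reads of both parts, so the share of reads from the flank also enters its difference. That share was not separated from the levels. Within the gene the difference came from the tile at chromosome 15, 102955001 to 102956000, with 21 CpGs. The tile read 5.86%, 7.69%, 4.598%, 14.4% and 6.57% in control and 1.67%, 1.20%, 0.523%, 1.43% and 0.231% in arsenic. Again the groups did not overlap, as in 0.83% of all tiles, and the unadjusted p was 9.13e-05 with an adjusted p of 0.612 in the same model. Of its 21 cytosines, 18 were lower and 1 higher in arsenic, 13 had an unadjusted p under 0.05, and 6 did not overlap. Its cytosines were thinly read, with 10 to 71 reads each, and 0 of 21 reached 20 reads in every library, so at that minimum the tile had no value and the Hoxc11 difference was -1.23 points. Neighbouring cytosines share reads and are not separate observations.

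Hoxd9, a limb gene, came next, at 3.54%, 2.53%, 5.85%, 5.96% and 5.69% in control libraries 1 to 5 and 1.96%, 2.55%, 2.30%, 4.07% and 2.74% in arsenic libraries 1 to 5. Control libraries 1 and 2 lay inside the arsenic range. The pooled difference was -2.04 points (unadjusted p = 0.00947, adjusted p = 0.866, quasi-binomial model), and the gene body alone gave 0.251 points, the opposite sign. Both flanks were lower in arsenic on average. The higher flank read 9.53% ± 9.29 in control, with control libraries 4 and 5 at 20.6% and 18.6%, and 6.34% ± 3.46 in arsenic. The lower flank, between Hoxd10 and Hoxd9, was at 8.73% ± 3.56 in control and 3.60% ± 1.24 in arsenic. One tile there (chromosome 2, 74696001 to 74697000, 9 CpGs) read 13.7%, 3.50%, 14.02%, 14.8% and 16.5% in control and 3.79%, 7.33%, 0.568%, 2.66% and 6.89% in arsenic, with control library 2 alone among the low values. Its unadjusted p was 0.00103 and its adjusted p 0.807 in the quasi-binomial model. All 16 cytosines of the tile were lower in arsenic. The strands of the same 7 CpGs did not read alike, with 5.26% to 24.4% on the forward strand of control libraries and up to 16.5% on the reverse strand, and up to 14% and 8.39% in arsenic.

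Hoxb8 (4.03% ± 0.892 in control, 3.01% ± 0.476 in arsenic) and Hoxd12, another limb gene (6.45% ± 2.25 and 3.85% ± 1.222), were the other two members under the unadjusted threshold, at p = 0.0299 and p = 0.0468 with adjusted p = 0.866 for both in the quasi-binomial model. In both the groups overlapped. Hoxb5 had the next largest difference after Hoxc11, -4.85 points on the mean levels, and a p of 0.0531 in the same model (adjusted p = 0.870). Of the regions higher in arsenic, the smallest p belonged to Evx1 (0.154) and Hoxd1 (0.155), with adjusted p = 0.908 for both.

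Of the 194 member tiles, 23 (11.9%) had an unadjusted p under 0.05, 17 lower and 6 higher in arsenic, against 5.8% of all tiles (3.34% lower and 2.46% higher). With a coverage minimum of 20 reads the count was 13 of 136 tiles, 7 lower and 6 higher. The share over all tiles at that minimum was not computed. Groups did not overlap in 2 of 194 tiles, that of Hoxc11 and that beside Evx1, against 0.83% of all tiles. After those of Hoxc11 and Hoxd9, the smallest p among lower tiles belonged to tiles in Hoxb5 (15.4% ± 3.84 in control, 7.92% ± 4.18 in arsenic), Hoxb9 (3.29% ± 2.47 and 1.03% ± 0.911) and Hoxc13 (2.43% ± 1.25 and 0.758% ± 0.625). After that beside Evx1, the smallest among higher tiles belonged to tiles in Hoxa10 (2.02% ± 1.14 in control, 7.47% ± 5.75 in arsenic), beside Hoxc12 (2.53% ± 0.726 and 5.66% ± 2.43), beside Hoxa2 (12.5% ± 2.88 and 17.5% ± 3.59) and in Hoxc4 (8.45% ± 2.07 and 12.8% ± 2.69). These 7 tiles overlapped between groups and had adjusted p values of 0.807 to 0.832 in the quasi-binomial model. At single cytosines, 360 of 3949 (9.12%) had an unadjusted p under 0.05, 208 lower and 152 higher, against 7.11% of all cytosines.

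**Figure D4:**
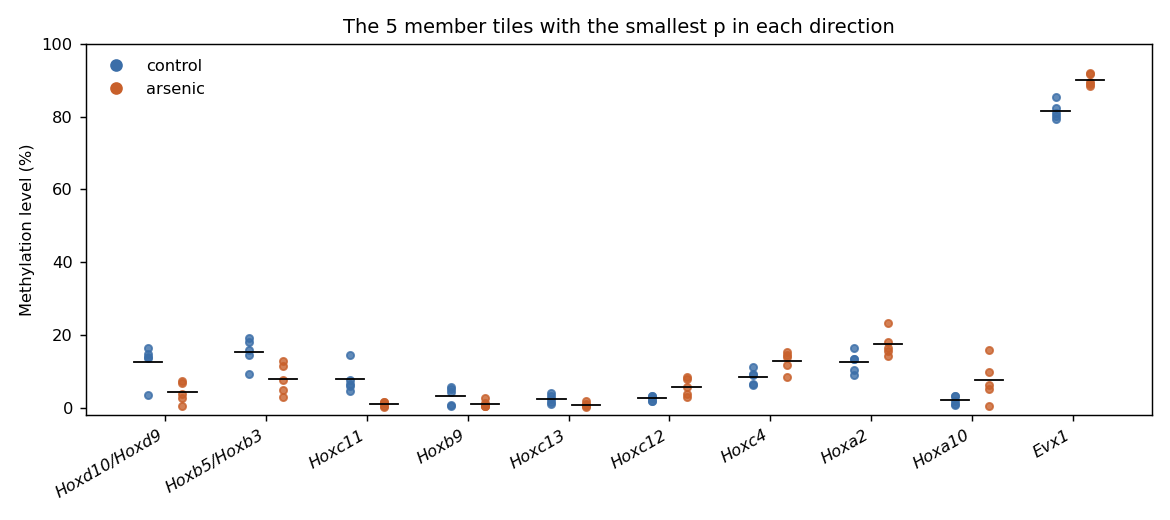
Each point is the methylation level (%) in 1 library of the 5 member tiles with the smallest p in each direction, named by the member windows they lie in, blue for control and orange for arsenic, with lines at group means. The Hoxc11 tile (arsenic 0.231% to 1.67%) and the Evx1 tile (arsenic 88.4% to 92.1%) are those whose groups do not overlap.

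In some tiles 1 or more control libraries lay far from the others. In the tile over Hoxb4 (chromosome 11, 96319001 to 96320000), control libraries 1 to 5 read 0.239%, 0.178%, 1.92%, 29.6% and 13.6%, and arsenic libraries 1 to 5 read 0.684%, 0.990%, 0.929%, 0.574% and 0.964%. Control libraries 4 and 5 alone were high there. In a tile inside Evx2 (chromosome 2, 74659001 to 74660000), control library 5 read 35.2% and control libraries 2 and 3 read 8.95% and 10.6%, while the arsenic libraries ran from 0.485% to 4.78%. A CpG-poor tile in Hoxa11 (chromosome 6, 52243001 to 52244000) had an SD of 14.5 in control and 15.4 in arsenic over 50 to 97 reads. These were the 3 member tiles with the largest SD between control libraries, so their wide control spread follows from that choice. Tiles were not ranked by the SD between arsenic libraries.

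Evx1, a gene of spinal interneurons (chromosome 6, 52313498 to 52318389), had a mostly unmethylated body, a partly methylated lower flank and a methylated higher flank. Its region read 30.2%, 31.8%, 30.7%, 40.6% and 27.6% in control libraries 1 to 5 and 35.5%, 35.9%, 34.2%, 34.6% and 34.5% in arsenic libraries 1 to 5. Control library 4 lay above and the other four control libraries below all arsenic libraries, and the control SD was 4.95 against 0.702. In body, lower flank and higher flank, control library 4 read 12.9%, 40.6% and 82.9%. Control library 3, with a region level of 30.7%, read 8.06%, 43.1% and 84.7% there. The region pools the reads of these parts, so the share of reads from each also enters its level, spread and difference. That share was not separated from the levels. The pooled difference of 2.91 points had an adjusted p of 0.908 in the quasi-binomial model, and without control library 4 the difference in means was 4.90. The gene body, with 36 CpGs, was at 8.84% ± 2.27 in control and 8.20% ± 1.97 in arsenic, so the lean to higher values was not in the body.

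The flanks of Evx1 differed from each other. The lower flank held 9 CpGs at 33.5%, 33.6%, 43.1%, 40.6% and 37.3% in control libraries 1 to 5 and 36.6%, 36.7%, 34.4%, 38.0% and 37.5% in arsenic libraries 1 to 5, with a pooled difference of -0.980 points. The higher flank held 10 CpGs at 81.0%, 80.5%, 84.7%, 82.9% and 75.3% in control and 89.5%, 88.6%, 93.3%, 92.5% and 89.2% in arsenic. All arsenic libraries were above all control libraries in the higher flank, as in 0.257% of all measured flanks (0.81% in either direction), and the groups overlapped in the lower. The pooled difference of 9.53 points was under the 10 points required for a call, and its unadjusted p of 0.000141 gave an adjusted p of 0.301 in the quasi-binomial model. Whether the flanks differ in their response was not tested. The count of member flanks at an unadjusted p under 0.05 was 6 of 53 (11.3%), 3 lower and 3 higher, against 6.36% of all flanks. Among the 3 lower ones, the lower flank of Hoxd9 and the higher flank of Hoxd10 share cytosines. Flanks of neighbouring members overlap, so the 53 are not independent.

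The tile that carries the higher flank (chromosome 6, 52320001 to 52321000) lies 1612 bp beyond the gene and was pointed out in earlier results of these data, so it is no independent support. It had 13 CpGs and 722 to 1421 reads per library, and read 80.2%, 81.0%, 85.4%, 82.4% and 79.4% in control libraries 1 to 5 and 89.7%, 88.4%, 91.6%, 92.1% and 89.0% in arsenic libraries 1 to 5. The groups did not overlap, and the pooled difference was 8.52 points (unadjusted p = 2.07e-05, adjusted p = 0.474, quasi-binomial model). Of its 20 cytosines, 18 were higher in arsenic, 9 had an unadjusted p under 0.05 and 2 did not overlap. On the 7 CpGs read on both strands, the forward strand read 80.5% ± 5.42 in control and 90.5% ± 3.44 in arsenic, and the reverse strand 82.6% ± 4.24 and 90.7% ± 3.42. The cytosines ran from 76.9% to 87.3% in control means and from 83.7% to 95.9% in arsenic means. In contrast with the Hoxc11 tile, 15 of 20 cytosines had at least 20 reads in every library, and with that minimum the difference was 9.36 points. That minimum drops the cytosines from 52320541 to 52320593, at the far end of the tile, whose pooled differences ran from -2.90 to 2.15 points. It also drops the cytosine at 52320264, at 13.4 points.

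**Figure D5:**
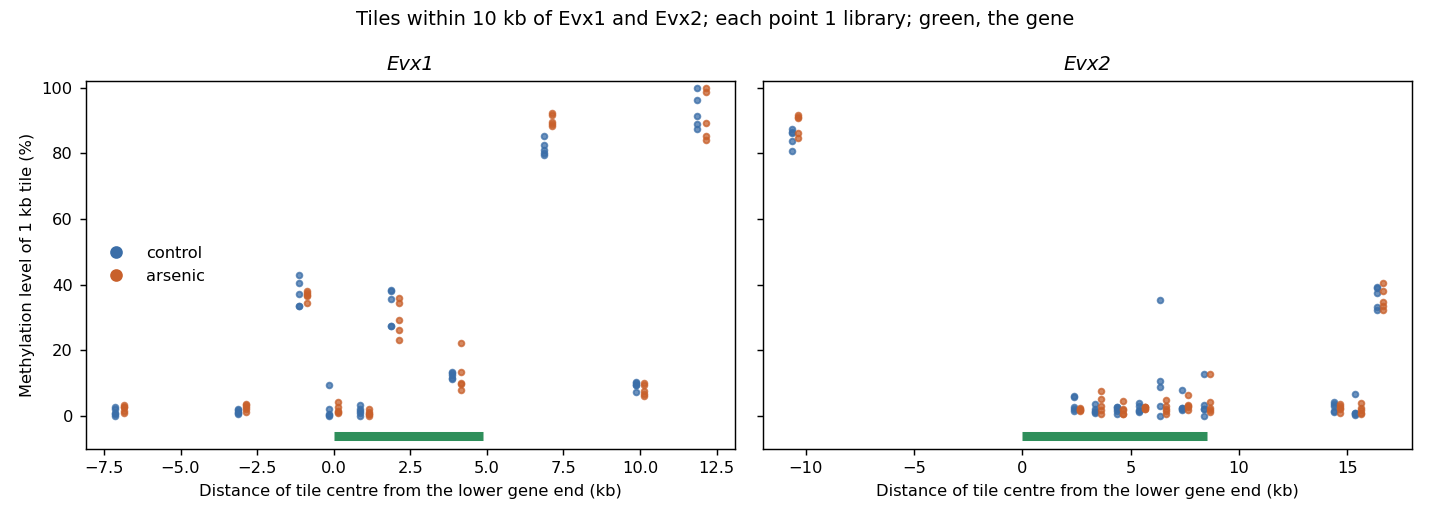
Each point is the methylation level (%) of a 1000 bp tile in 1 library, blue for control and orange for arsenic, against the distance in kb of the tile's centre from the lower end of Evx1 (left) or Evx2 (right), with the gene as a green line. Beside Evx1 the tile at about 7 kb lies at 79.4% to 85.4% in control and 88.4% to 92.1% in arsenic, and the tiles over Evx2 lie low apart from control library 5 at 35.2% in 1 of them.

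The tiles next to it had smaller differences. Towards the gene, the tile at the gene's higher end was at 12.3% ± 0.933 in control and 12.7% ± 5.70 in arsenic. Away from it, the next measured tile, 4612 bp from the gene, was at 9.35% ± 1.18 and 7.997% ± 1.68, and the one after, at 6612 bp, was methylated again at 92.8% ± 5.19 and 91.4% ± 7.50. These 3 had unadjusted p values of 0.887, 0.211 and 0.787 in the quasi-binomial model. On the lower side, a tile 2498 bp from Evx1 stood at 1.33% ± 0.583 and 2.60% ± 0.922 (unadjusted p = 0.0122, adjusted p = 0.821, same model).

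Evx2, which neighbours Hoxd13 and shares its limb enhancers (chromosome 2, 74652989 to 74661520), had low levels over its length. It read 3.82%, 2.09%, 2.43%, 3.12% and 4.20% in control libraries 1 to 5 and 2.19%, 3.01%, 1.98%, 2.55% and 2.85% in arsenic libraries 1 to 5, with overlapping groups and a pooled difference of -0.616 points (adjusted p = 0.908, quasi-binomial model). At a coverage minimum of 20 reads the pooled difference was 0.887 points, the opposite sign. All 166 of its CpGs lay inside the gene, and each of its 7 tiles had a mean under 10% over the 10 libraries, although the tile with the high control library 5 had a control mean of 11.6%. Its flanks held no measured CpG, so they cannot be set beside those of Evx1. The nearest measured tile on the lower side, 9989 bp away, was at 84.9% ± 2.67 in control and 88.8% ± 3.21 in arsenic. On the higher side the nearest, 5481 bp away towards Hoxd13, stood at 2.77% ± 1.39 and 2.47% ± 1.08.

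Genes that act with or upon the Hox genes were read from the same fit over all gene regions, and none was called. Over all gene regions, 59.9% were lower in arsenic by mean level and 5.71% had an unadjusted p under 0.05. Of 9 Hox cofactor genes, 8 were lower in arsenic and 2 had an unadjusted p under 0.05. These were Pknox1 (29.3% ± 4.24 in control, 23.7% ± 2.36 in arsenic) and Pbx3 (25.2% ± 1.29 and 22.4% ± 2.54), partners that bind DNA beside Hox proteins. Of 17 measured among 18 Polycomb genes, 10 were lower and 1 was under that threshold, the H3K27 methyltransferase Ezh1 (72.2% ± 1.54 and 66.4% ± 5.57), followed by its core partner Eed (39.2% ± 5.70 and 33.5% ± 5.19) at p = 0.0572 in the quasi-binomial model. Of 9 Trithorax and H3K27 demethylase genes, 6 were lower and 3 were under it, among them the H3K4 methyltransferase Kmt2b, higher in arsenic (35.4% ± 2.51 and 40.2% ± 1.998), and its partner Men1, lower (38.4% ± 5.80 and 32.6% ± 3.06). Of 11 upstream regulators, 6 were lower and 0 were under it. The groups did not overlap in 1 upstream regulator, whose values are not given, and in none of the other partner genes, against 0.77% of all gene regions. Adjusted p values of these named genes ran from 0.847 to 0.880, and over the 40 members from 0.847 to 0.996, in the same model.

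The tissue label was read against methylation known from male germ cells. The control region upstream of H19, methylated in sperm, was at 95.2% ± 2.85 in control and 95.6% ± 2.17 in arsenic over 3 CpGs, and 8 gene ends that are methylated only on the maternal allele were at 11.7% ± 3.86 and 10.5% ± 0.306 on average. Gene ends of 6 germ cell genes were at 20.2% ± 0.655 and 18.97% ± 2.65 on average, and those of 4 Leydig cell genes at 46.9% ± 1.93 and 49.3% ± 4.22. The Leydig average joins unlike genes, with Cyp17a1 and Star at 86.3% and 93.7% over the 10 libraries. Cyp11a1 and Lhcgr were at 7.31% and 4.89%. In DNA from a mixed tissue a change within cells and a change in the share of cells cannot be told apart.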

How the data were processed

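Reduced representation bisulfite sequencing was read in testis DNA of 5 control and 5 arsenic libraries, grouped by their titles. The submitters' processing notes name Trim Galore 0.6.5, Bismark 0.22.3, methylKit 1.22.0 and mm10, without settings. Read counts per cytosine and library (all, methylated and unmethylated reads) were deposited in 1 table, not normalised per the file headers, with each strand of a CpG in its own row. Every cytosine had at least 10 reads in every library, so cytosines that failed in 1 library are absent. Total reads per library were 69771871 to 100355708. Upper limits beside a level of 0 are 3 reads over the total and, without molecular identifiers, hold for counting error alone.

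Gene positions came from a RefSeq table on GRCm38.p6 without strand or exons, and all 40 members were found. The table gives no exons, so positions are stated only as inside or beyond a gene. Promoter sequences came from RefSeq on the same assembly, and 116 of 116 measured cytosines in member promoters fell on a matching base. Reads were pooled over genes with 2000 bp beyond both ends, over 1000 bp tiles and over flanks, each with at least 3 measured CpGs. Dispersion was squeezed as in limma and kept at 1 or above, an F test compared the groups, and p was adjusted (Benjamini-Hochberg) over all features of a kind. Levels with an SD are means over libraries, and pooled differences weight reads. Software was numpy 2.4.6, pandas 2.3.3 and scipy 1.17.1 under Python 3.11.15, and limma 3.58.1 under R 4.3.3. The model was tested on simulated data.

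Members, partner lists, markers and tests were chosen with earlier results of these data known. Values per library were given for the clusters, for Evx1 and Evx2 with flanks, for the highest and lowest member of each cluster and for the 2 members per direction with the smallest p. Tiles named were the 5 per direction with the smallest p, the 3 highest and the 3 with the largest control SD, and of each partner list the 2 genes with the smallest p. For 2 partner genes so chosen no value is given. Further tiles and promoters were named after their values were seen. Alternatives were a coverage of at least 20, other CpG minimums, tile sizes and flanks, limma, a binomial model, a replicate block and leaving out each library. Leaving out control libraries 4 and 5 together was added after seeing the data.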

Additional observations from a re-analysis of the deposited data

Results flagged for a closer look

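In 124 groups of 5 libraries (member regions, clusters, Evx1 flanks and named tiles), the highest or lowest library stood far from the other four in 13, by a gap over 0.71 of the group's range. Chance flags about 1 in 20 groups. That rate does not hold for the named tiles (3 of 32 groups), which were chosen by p, level or control SD, and the other 10 of 92 groups share windows and are not independent. Of the 13, 6 were control and 7 arsenic libraries, and control library 4 gave 3.

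Among control libraries, library 4 was high in Hoxa7 (3.87%, the others 3.31% to 3.46%) and in Hoxb1 (12.1%, the others 2.72% to 4.87%). It was at 0% of 50 reads, which allows up to 6%, in the Hoxa11 tile at 52243001 (the others 27.3% to 36.8%). Control library 1 was high in Hoxd8, a limb and trunk gene (8.62%, the others 0.598% to 1.62%). Control library 2 was low in the tile between Hoxd10 and Hoxd9 (3.50%, the others 13.7% to 16.5%) and in the Hoxb3 tile beside Hoxb5 (85.2%, the others 90% to 91.6%).

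Among arsenic libraries, library 4 was high in Hoxa4 (7.17%, the others 4.46% to 5.17%) and in the prostate gene Hoxb13 (13.3%, the others 8.03% to 9.44%), and low in Hoxb8 (2.19%, the others 3.11% to 3.40%). Arsenic library 5 was high in Hoxa3, a thymus and parathyroid gene (14.5%, the others 13.5% to 13.6%), library 3 in Hoxd3 (18.7%, the others 15.6% to 16.4%) and library 2 in Hoxd8 (5.28%, the others 0.203% to 0.830%). Arsenic library 1 was low in the Hoxd cluster (8.51%, the others 9.40% to 9.63%).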

How the results depend on the processing

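No member tile, gene region or flank was called under any alternative of the quasi-binomial model. The binomial model, which ignores the spread between libraries, called 1986 tiles (2 of them member tiles), 65 gene regions, 89 flanks and 82352 cytosines, and put 104 member tiles and 29 member regions under an unadjusted p of 0.05. Limma called 1 tile and 1 gene region, neither of them a member, and put 14 member tiles under that threshold. A coverage of at least 20 left 13 of 136 such tiles and turned the Evx2 difference in means to 0.912 points and its pooled difference to 0.887. Leaving out single libraries gave 18 to 28 member tiles and 2 to 6 member regions under the threshold (2 without arsenic library 4), 28 to 33 lower member regions, and 0 calls of any kind. The differences then ran from -0.387 to -0.116 in Hoxa, -1.42 to -0.704 in Hoxb, -1.63 to -0.738 in Hoxc, -1.41 to -0.938 in Hoxd, 1.65 to 4.90 in Evx1 and -0.878 to -0.349 in Evx2. Without control libraries 4 and 5 they were -0.540 in Hoxb, -0.367 in Hoxc and -0.264 in Evx2. Signs turned for genes without flanks in Hoxd9 (0.251) and Evx1 (-0.404 pooled, -0.644 in means) and in the Evx1 lower flank at 5000 bp (0.169). Without single libraries that flank ran from -2.30 to 0.738, above 0 only without control library 3. Signs also turned in 3 tiles with small differences, which ran from -0.869 to 1.05 at Hoxb3 beside Hoxb5 (above 0 without control library 1, 4 or 5 or arsenic library 4, and 0.633 without control libraries 4 and 5), from -1.24 to 1.15 further inside Hoxb3 (above 0 without control library 1 or 2 or arsenic library 3) and from -7.23 to 3.85 in Hoxa11 (above 0 without control library 2 or arsenic library 1 or 4). The cause was not tested. Whether replicate numbers pair the samples was not settled. The correlation of same-numbered deviations was -0.0124 to 0.0165. Numbers 1, 2 and 4 correlated best with their own, and 2 of 5 did not. The fit with the replicate block called 0 features, put 34 member tiles and 5 member regions under the threshold, and gave adjusted p values of 0.137 in the Evx1 higher flank and 0.713 in Hoxc11. For these alternatives the share of all features under the threshold or lower in arsenic was not computed. The member counts under them therefore have no background to be set against. At 1000 bp the Evx1 higher flank had fewer than 3 CpGs, and named tiles were not recomputed at other tile sizes. Low coverage limits the Hoxc11 tile, and few measured CpGs limit the surroundings of the clusters.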

Other observations

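Other members, not described above, add to the picture of paralogs. Hoxc9, which marks thoracic motor neurons, had a level of 26.6% ± 1.60 (SD, n = 5) for control and 24.8% ± 1.60 for arsenic libraries, while its paralogs Hoxa9, Hoxb9 and Hoxd9 were at 8.08%, 7.21% and 3.72% over 10 libraries. Its gene body was at 29.9% ± 3.03 over 40 CpGs in control and 29.6% ± 3.92 in arsenic. Its higher flank read 78.0% ± 3.85 and 76.9% ± 3.60, over 7 CpGs, against 4.14% ± 1.225 and 4.62% ± 1.51 on its lower flank. Hoxc10, a lumbar gene, was at 17.1% ± 2.51 and 17.2% ± 2.41, against 4.50% in Hoxa10 and 6.30% in Hoxd10. In group 13, which ends each cluster, Hoxa13, Hoxd13, Hoxc13 and Hoxb13 were at 3.79%, 6.18%, 7.40% and 8.92%. In group 3, Hoxa3, Hoxb3 and Hoxd3 were close to each other at 14.3%, 13.7% and 17.2%, and each of these windows contains whole neighbouring genes. These levels were given no test.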
